A study of Mus musculus with 3 samples.

Results

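The genes described here encode the constant parts of mouse antibodies and the protein that joins antibody units together. They are Igkc, the constant region of the kappa light chain, Iglc1, Iglc2 and Iglc3, the constant regions of the lambda light chains, Ighm, Ighd and Igha, the constant regions of the IgM, IgD and IgA heavy chains, and Jchain, the joining chain of polymeric IgM and IgA. They were chosen by symbol, and all 8 of them were found among the 56980 gene rows of each library. Their transcripts were followed in 3 single-cell libraries of mouse bone marrow nucleated cells (BMNCs) of the C57BL/6 strain, collected 14 days post-irradiation (DPI). Control mice were not irradiated, IR mice received 6.0 Gy of gamma-irradiation and the solvent, soybean oil containing DMSO, and IR+CBD mice received the same irradiation and cannabidiol (CBD), a plant cannabinoid, by intraperitoneal injection before and after it. The methods name male mice for tests of radioprotection, and the age of these animals is not given in the sources used here. Each library pooled 3 mice and was mixed from sorted fractions in a 5:4:1 ratio of Lin-Kit+ to Lin-Kit- to Lin+ cells, Lin being the lineage antigens of mature blood cells. Shares of cells therefore refer to that mixture and not to whole marrow, and with 1 library per group no difference between groups could be tested. All ratios below compare libraries, and the intervals beside them are 95% intervals that cover counting error only.

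A B cell precursor first makes the IgM heavy chain and pairs it with the surrogate light chain, which Igll1 and the Vpreb genes encode. It then rearranges a kappa or a lambda light chain gene while the recombinase genes Rag1 and Rag2 are expressed, and the mature B cell that follows carries IgM and IgD, spliced from a shared heavy chain transcript. A plasma cell devotes much of its messenger RNA to 1 light chain and 1 heavy chain, and may have switched from IgM to IgG or IgA. Kappa light chains greatly outnumber lambda light chains in mouse antibodies, and each B cell usually keeps a single productive light chain. Transcripts of an unrearranged constant gene, which lack a variable segment, also occur in this lineage, and a count made near the 3′ end of a transcript does not tell the kinds apart.

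The lambda genes are close copies, so the sequences that a read has to tell apart are shown here. The coding sequences of Iglc2 and Iglc3 were 96.5% identical, with 11 differences over 314 aligned bases, while Iglc1 was 74.8% identical to Iglc2 and 75.7% identical to Iglc3. No stretch of 91 bases was shared between any of the 8 genes, and stretches of 50 bases were shared only between Iglc2 and Iglc3, where 43 of the 409 windows of Iglc2 recurred in Iglc3. The last 120 coding bases follow, from GENCODE transcripts of the GRCm38 build, with capitals at the 39 positions where the 3 genes are not all alike. Iglc2 and Iglc3 differ from each other at 2 of these positions.
Iglc1: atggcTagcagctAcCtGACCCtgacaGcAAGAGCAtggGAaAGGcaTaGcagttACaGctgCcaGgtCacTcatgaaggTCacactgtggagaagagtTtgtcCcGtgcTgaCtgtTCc
Iglc2: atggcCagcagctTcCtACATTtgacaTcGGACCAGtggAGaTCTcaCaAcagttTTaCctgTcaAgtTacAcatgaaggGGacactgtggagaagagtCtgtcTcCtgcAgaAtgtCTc
Iglc3: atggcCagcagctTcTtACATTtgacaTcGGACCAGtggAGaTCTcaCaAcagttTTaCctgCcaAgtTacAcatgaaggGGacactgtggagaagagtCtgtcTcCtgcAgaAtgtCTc

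On that build Igkc lies at chr6:70726435-70726966 on the plus strand. The lambda genes lie on the minus strand of chromosome 16, with Iglc1 at chr16:19061618-19062071, Iglc3 at chr16:19065230-19065681 and Iglc2 at chr16:19198396-19200351. The heavy chain genes lie on the minus strand of chromosome 12 in the order Igha (chr12:113254830-113260236), Ighd (chr12:113406604-113416324) and Ighm (chr12:113418558-113422730), and Jchain lies at chr5:88519809-88527891 on the minus strand. The deposited counts were made on GRCm39, so these positions locate the genes and were not used for any value. Igkc overlaps Gm30211 on the same strand, Iglc2 overlaps the joining segment Iglj2 on the same strand, and Iglc1 and Iglc3 overlap 2010309G21Rik on the opposite strand, so counts of these genes carry some uncertainty.

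Cells with 200 or more genes and at most 5% of unique molecular identifiers (UMIs, which count single captured transcripts) from mitochondrial genes were kept. This left 10674 cells in the Control, 10345 in the IR and 10273 in the IR+CBD library, with median depths between 12479.5 and 14211 UMIs per cell. Between 26 and 34 kept barcodes were shared by each pair of libraries. Among the kept cells 5 overlapping gates were set on raw UMIs. The Igll1 gate, with 2 or more Igll1 UMIs, takes cells with surrogate light chain and held 910, 918 and 438 cells in the Control, IR and IR+CBD libraries, the order used throughout. The Rag1 gate, with 1 or more Rag1 UMIs and Igll1 at 0, takes cells with recombinase and without surrogate light chain, which may come before or after that stage, and held 870, 1115 and 1073 cells. The Ms4a1 gate, with 1 or more UMIs of the gene for CD20, held 937, 939 and 950 cells. The Jchain gate, with 5 or more Jchain UMIs, held 28, 10 and 15 cells, and the Cd79a-zero gate, with no UMI of the B cell receptor partner Cd79a, held 6775, 5921 and 6446 cells. Median depths were 10402.5, 8517 and 11723 UMIs per cell in the Igll1 gate but 3287, 3459 and 2988 in the Ms4a1 gate, so shares of positive cells are also given after each cell was thinned to 2000 UMIs. Of 10 B cell markers, 3 or more were detected in 96.1%, 97.1% and 97.4% of Ms4a1 cells, and in 79.9% to 80.9% of Igll1 cells. Of 10 pro-B and large pre-B markers, 3 or more were detected in 90.9% to 95.2% of Ms4a1 cells, and of 8 markers of plasmacytoid dendritic cells (pDCs) in 43.3% to 59.96%. These lists therefore do not separate the gates, which are called here by the gene that set them. The summed level of 5 neutrophil markers, all detected, was 14161, 13573 and 20908 CPM (UMIs of a gene per 1000000 UMIs of the cells summed) in the Ms4a1 gate and 33613, 36697 and 41823 CPM in the Cd79a-zero gate. Their part in the members' values was not tested.

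In the Igll1 gate all 3 libraries held alike Ighm and unlike light chain levels. Ighm stood at 1148 CPM in the Control, 1100 CPM in the IR and 1093 CPM in the IR+CBD library. The IR over Control ratio of Ighm was 0.958 (0.936 to 0.980) and the IR+CBD over IR ratio 0.994 (0.966 to 1.02), so the libraries lay within a few percent of each other. Igkc stood at 197 CPM in the Control, 970 CPM in the IR and 348 CPM in the IR+CBD library. A single IR cell, which also passed the Jchain gate, held 56.3% of the Igkc UMIs of its gate. Without cells of the Jchain gate Igkc stood at 197, 424 and 351 CPM, an IR over Control ratio of 2.15 (2.05 to 2.26) and an IR+CBD over IR ratio of 0.827 (0.787 to 0.868). The IR library was still the highest and the Control library the lowest. The share of cells with an Igkc UMI followed the same order, at 40.7%, 60.02% and 55.7%, and at 20.6%, 41.2% and 34.3% in thinned cells.

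The lambda genes of the Igll1 gate were also highest in the IR library. With Jchain gate cells left out, 172, 484 and 33 Iglc1 UMIs, 172, 386 and 54 Iglc2 UMIs, and 152, 352 and 95 Iglc3 UMIs were counted. The IR over Control ratios were 2.79 (2.34 to 3.34) for Iglc1, 2.22 (1.85 to 2.68) for Iglc2 and 2.29 (1.89 to 2.79) for Iglc3. The IR+CBD over IR ratios were 0.134 (0.0911 to 0.191), 0.275 (0.203 to 0.366) and 0.530 (0.418 to 0.666) for the same genes. Iglc1 was thus lower in the IR+CBD than in the Control library, at 4.96 against 13.3 CPM, while Igkc was higher. Few cells carried these counts, since in thinned cells 18.9%, 34.9% and 30.1% held kappa UMIs alone, 1.21%, 2.20% and 1.15% held lambda UMIs alone, and 1.76%, 6.28% and 4.14% held both. Cells that also passed another gate carried a large part of the lambda counts. Leaving them out, 871, 878 and 417 cells remained, and the summed lambda UMIs fell from 496, 1222 and 182 to 259, 692 and 103.

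The Igll1 gate was split by Rag1, a readout the gate did not use. Rag1 was detected in 45.1%, 46.5% and 44.2% of the cells outside the Jchain gate. In those cells Igkc stood at 107 CPM in the Control, 369 CPM in the IR and 183 CPM in the IR+CBD library. Cells with Rag1 at 0 held 252, 460 and 458 CPM, so both irradiated libraries were alike and above the Control library there. The sum of the 3 lambda genes ran the other way within libraries, at 58.8, 144 and 38.5 CPM with Rag1 and 25.9, 61.2 and 20.2 CPM without it. Rag1-positive cells were the shallower ones, with median depths of 7636, 5614.5 and 8550 against 12600.5, 11465 and 13832 UMIs. Of 4 myeloid progenitor markers, all detected, 3 or more were found in 44.3%, 19.5% and 30.4% of the cells of the gate, with a summed level of 2784, 2463 and 3511 CPM, and their part in the light chain values was not tested.

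Counting the members past 1.5-fold in either direction, 6 of 8 were higher in the IR than in the Control library of the Igll1 gate, Igkc, Iglc1, Iglc2, Iglc3, Igha and Jchain. Over all genes with 50 or more UMIs in the gate, 10.2% of 12847 were past that fold. Between IR+CBD and IR the same 6 genes were lower, against 9.62% of all genes. Without the Jchain gate cells Jchain had too few UMIs to be counted, 5 of 7 members were higher in the IR library, and 3, the lambda genes, were lower in IR+CBD than in IR. The members' median log2 ratios were then 1.15 and -0.27, beside -0.01 and 0.01 over all genes of the gate. In the IR library 1 cell held 2041 Igha and 1406 Jchain UMIs, 98.4% and 99.01% of all those in the gate. Without it Igha was still higher in the IR than in the Control library, on 33 against 8 UMIs and a ratio of 4.08 (1.85 to 10.2), while the Jchain ratio was 1.15 (0.496 to 2.73) on 14 against 12 UMIs.

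**Figure D1:**
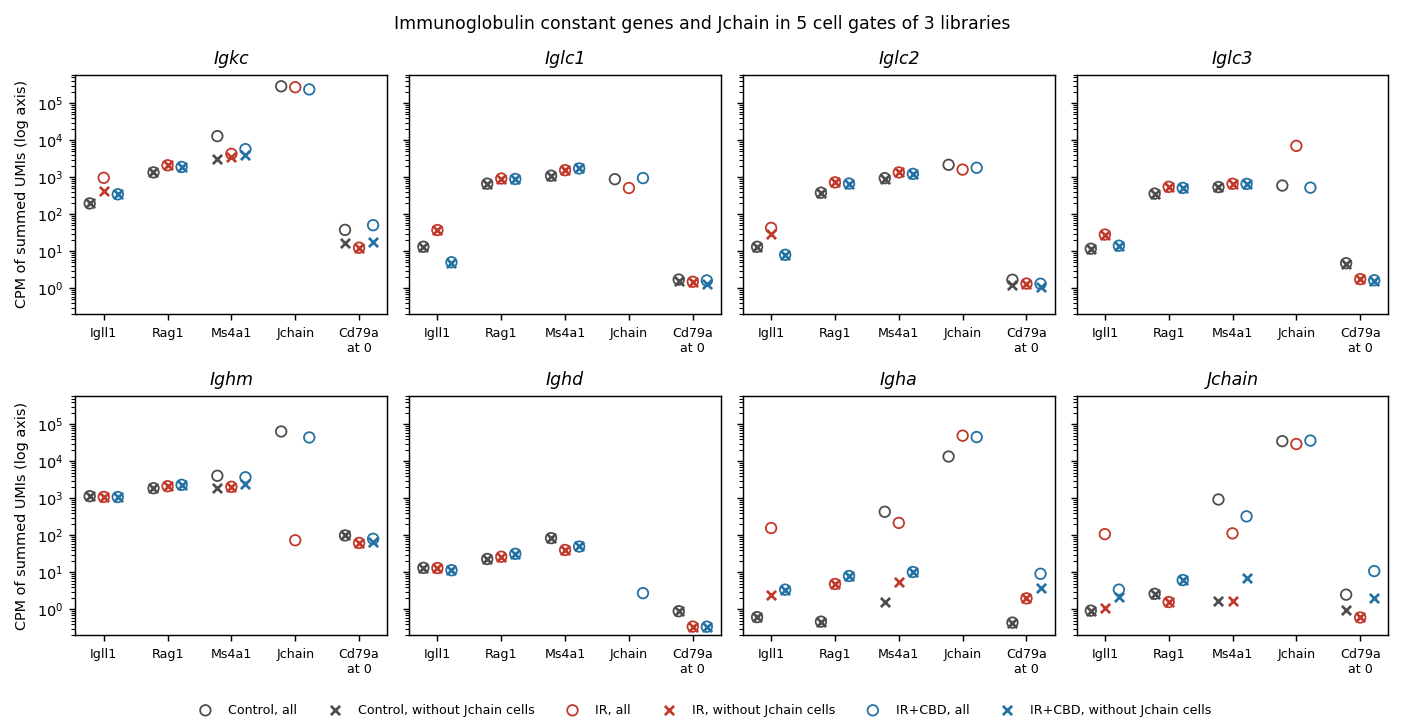
Levels of the 8 genes in the 5 gates, as CPM on a log axis, for the Control, IR and IR+CBD libraries. Open circles take all cells of a gate and crosses leave out cells with 5 or more Jchain UMIs; values of 0, which are Ighd in the Control and IR libraries of the Jchain gate, are not drawn. Igkc in the Ms4a1 gate of the Control library moves from 12974 to 3037 CPM when those cells are left out.

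In the Rag1 gate all 4 light chain genes were higher in both irradiated libraries than in the Control library. Igkc stood at 1358 CPM in the Control, 2115 CPM in the IR and 1905 CPM in the IR+CBD library. The IR over Control ratio was 1.56 (1.52 to 1.60) and the IR+CBD over IR ratio 0.901 (0.880 to 0.921), the intervals lying on opposite sides of 1. Cells with an Igkc UMI made up 77.9%, 87.0% and 82.7%, or 71.2% (67.9 to 74.3), 81.9% (79.5 to 84.2) and 77.3% (74.6 to 79.9) after thinning. The thinned intervals of the Control and IR libraries did not overlap, and the IR+CBD library lay between them. No cell of this gate passed the Jchain gate, and no cell held more than 0.91% of the Igkc UMIs of its library.

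The lambda genes of the Rag1 gate followed. Iglc1 stood at 675, 928 and 902 CPM, with an IR over Control ratio of 1.37 (1.32 to 1.43). Iglc2 stood at 384, 730 and 679 CPM, a ratio of 1.90 (1.82 to 1.996), and Iglc3 at 363, 553 and 517 CPM, a ratio of 1.53 (1.45 to 1.60). The IR+CBD over IR ratios were 0.972 (0.940 to 1.01), 0.930 (0.895 to 0.967) and 0.935 (0.894 to 0.977), all close to 1. Kappa and lambda kept a like proportion, the ratio of Igkc UMIs to summed lambda UMIs being 0.955 (0.927 to 0.984), 0.957 (0.937 to 0.977) and 0.908 (0.886 to 0.930). Within lambda the share of Iglc2 was 26.99% in the Control library and 33.0% and 32.4% in the irradiated libraries.

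The heavy chain genes of the Rag1 gate differed less. Ighm stood at 1885 CPM in the Control, 2137 CPM in the IR and 2334 CPM in the IR+CBD library, ratios of 1.13 (1.11 to 1.16) and 1.09 (1.07 to 1.12). Ighd stood at 23.0, 26.6 and 31.9 CPM, and both of its ratios, 1.15 (0.932 to 1.43) and 1.20 (0.988 to 1.45), had intervals that include 1. Of the 8 members, 4 were more than 1.5-fold higher in IR than in Control (Igkc, Iglc2, Iglc3 and Igha) and 1 was lower (Jchain, on 13 against 17 UMIs), while 13.3% of all genes tested were past that fold. The Igkc ratio fell short of that fold, at 1.39 with stricter gates and at 1.495 without cells of several gates. Between IR+CBD and IR, Igha and Jchain were higher on 54 and 42 UMIs, and 6.83% of all genes were past the fold. The members' median log2 ratios were 0.53 and 0.04, beside -0.02 and 0.03 over all genes. Of 5 early lymphoid markers, all detected, 3 or more were found in 10.5%, 3.95% and 2.98% of its cells, with a summed level of 708, 409 and 456 CPM. Dntt, the terminal transferase gene and one of them, was detected in 11.5%, 3.95% and 3.73% of the cells and stood at 329, 140 and 176 CPM, so these cells were most common in the Control library, where the light chain genes were lowest. Of 4 myeloid progenitor markers, all detected, 3 or more were found in 42.8%, 16.6% and 19.5% of its cells, with a summed level of 5277, 3499 and 4130 CPM. Whether either kind of cell bears on the light chain values was not tested.

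In the Ms4a1 gate the values of all cells were set by a few plasma-like cells. Igkc stood at 12974 CPM in the Control, 4310 CPM in the IR and 5777 CPM in the IR+CBD library, yet the median cell held 22, 27 and 23 Igkc UMIs. The gate contained 10, 1 and 2 cells of the Jchain gate, and the largest of these held 14104, 6072 and 5564 Igkc UMIs. Without them Igkc stood at 3037, 3593 and 4099 CPM, so the order of the libraries turned round. The IR over Control ratio went from 0.332 (0.328 to 0.336) to 1.18 (1.16 to 1.20), and the IR+CBD over IR ratio from 1.34 (1.32 to 1.36) to 1.14 (1.12 to 1.16). Among all cells the ratio of kappa to lambda UMIs was 4.99 (4.91 to 5.07), 1.20 (1.18 to 1.22) and 1.59 (1.56 to 1.61). Without Jchain gate cells it was 1.19 (1.16 to 1.21), 1.00 (0.984 to 1.02) and 1.12 (1.10 to 1.14), lowest in the IR library in both sets.

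The lambda genes in the Ms4a1 gate stood at 1107, 1558 and 1734 CPM for Iglc1, 949, 1356 and 1241 CPM for Iglc2, and 545, 669 and 664 CPM for Iglc3. The IR over Control ratios without Jchain gate cells were 1.40 (1.36 to 1.44), 1.502 (1.46 to 1.55) and 1.25 (1.20 to 1.30). Iglc2 was therefore the lambda gene with the largest ratio in this gate as in the Rag1 gate. Over all Ms4a1 cells, 5 members were more than 1.5-fold lower in IR than in Control (Igkc, Ighm, Ighd, Igha and Jchain) beside 11.0% of 12079 genes past that fold. This became, once those cells were left out, 2 higher (Iglc2 and Igha) and 1 lower (Ighd). Between IR+CBD and IR, 2 members were higher (Ighm and Jchain) and 1 lower (Igha) in all cells, beside 7.72% of all genes, and 2 were higher (Igha and Jchain) without Jchain gate cells. The members' median log2 ratio of IR over Control went from -0.99 to 0.28 when those cells were left out.

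**Figure D2:**
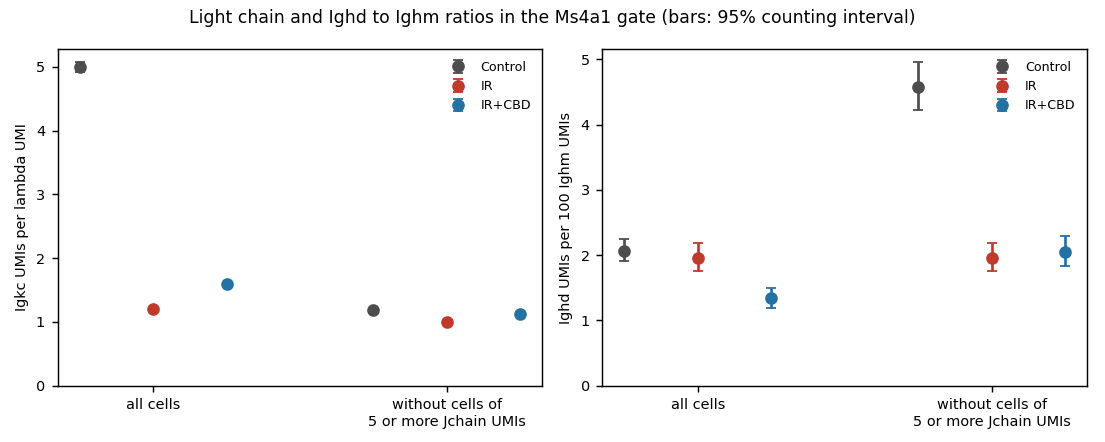
Ratio of kappa to lambda UMIs and Ighd UMIs per 100 Ighm UMIs in the Ms4a1 gate of each library, over all cells and without cells of 5 or more Jchain UMIs, with 95% intervals of counting error. The Control library moves most between the sets, from 4.99 to 1.19 for the kappa to lambda ratio and from 2.07 to 4.58 for Ighd per 100 Ighm.

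The light chains of single cells were read where a cell held 10 or more light chain UMIs, calling a cell kappa at 10% or less lambda UMIs, lambda at 90% or more, and mixed between. In the Ms4a1 gate 808, 872 and 876 cells could be called. Mixed cells made up 65.8% (62.5 to 69.1), 71.3% (68.2 to 74.3) and 67.2% (64.0 to 70.3) of them, so most cells with CD20 transcripts held both chains. Kappa cells made up 16.5%, 13.5% and 15.6%, and lambda cells 17.7%, 15.1% and 17.1%. The median mixed cell held 29, 33 and 29 Igkc UMIs beside 15.5, 24 and 19 lambda UMIs. After removal of the highest doublet scores, chosen as a check after these shares were seen, mixed cells made up 66.4%, 70.8% and 67.1%. In thinned cells 69.2%, 76.6% and 72.6% of the Ms4a1 gate held UMIs of both chains, against 0.305%, 0.276% and 0.397% of the Cd79a-zero gate.

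Mixed cells were less common in the other gates. In the Rag1 gate 599, 967 and 848 cells could be called, of which 37.4% (33.5 to 41.4), 49.8% (46.6 to 53.0) and 40.2% (36.9 to 43.6) were mixed. Kappa cells made up 38.7%, 33.7% and 36.2% and lambda cells 23.9%, 16.4% and 23.6%. The IR library held the largest mixed and the smallest kappa and lambda shares, and the intervals of its mixed share did not overlap those of the other libraries. In the Igll1 gate, 79.3%, 75.1% and 87.1% of 92, 225 and 85 called cells were kappa cells. In thinned cells both chains were found in 33.4%, 53.1% and 42.2% of the Rag1 gate and in 1.76%, 6.28% and 4.14% of the Igll1 gate.

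**Figure D3:**
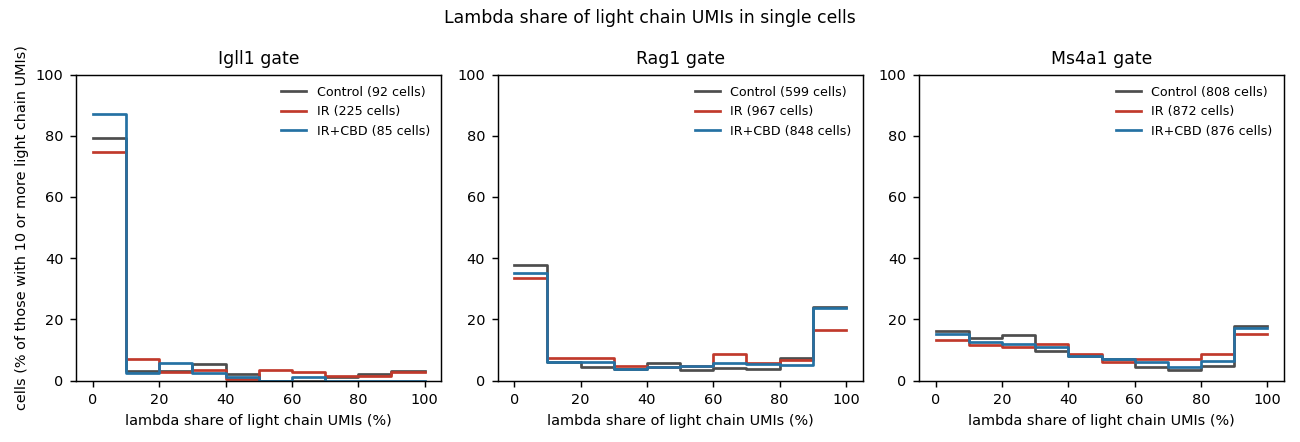
Share of light chain UMIs that were lambda, in bins of 10 percentage points, for cells with 10 or more light chain UMIs in the Igll1, Rag1 and Ms4a1 gates of each library. Cells gather near 0 in the Igll1 gate, at both ends and between them in the Rag1 gate, and mostly between the ends in the Ms4a1 gate, where 65.8% to 71.3% were mixed.

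Variable segments were searched in the same cells, though most reads of a 3′ library lie in the constant part. An Igkv gene was detected in 52.6%, 46.6% and 43.8% of the kappa cells and 22.4%, 23.5% and 20.7% of the lambda cells of the Ms4a1 gate. An Iglv gene was detected in 37.8%, 33.3% and 32.7% of the lambda cells and 9.02%, 12.7% and 11.7% of the kappa cells. The variable gene was then read beside the leading constant gene of a lambda cell. Iglv1 was found in 25 of 79, 16 of 61 and 26 of 93 cells led by Iglc1, in 6 of 22, 3 of 16 and 6 of 18 cells led by Iglc3, and in 2 of 40, 8 of 54 and 3 of 37 cells led by Iglc2. Iglv2 was found in 10, 14 and 5 of the cells led by Iglc2, in 6, 2 and 9 of those led by Iglc1 and in 0 of those led by Iglc3. Iglv1 was thus detected in cells led by each of the 3 constant genes, and Iglv2 in cells led by Iglc1 or Iglc2. Kappa cells also held an Iglv gene at the shares above, so no pairing is read from the smaller of these counts. All 3 lambda genes were detected in 55.9%, 68.2% and 65.3% of lambda cells. The leading gene took a median of 59.4% to 76.6% of a cell's lambda UMIs in the Ms4a1 gate.

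Ighd, which marks the later of the B cell stages, separated the Control library from both irradiated libraries in the Ms4a1 gate. Leaving out Jchain gate cells, it stood at 87.1 CPM in the Control, 40.6 CPM in the IR and 50.6 CPM in the IR+CBD library, on 622, 337 and 312 UMIs. The IR over Control ratio was 0.466 (0.407 to 0.532) and the IR+CBD over IR ratio 1.25 (1.07 to 1.46). Cells with an Ighd UMI made up 30.2%, 22.4% and 22.8%, or 20.97% (18.3 to 23.8), 12.6% (10.5 to 14.99) and 14.9% (12.5 to 17.4) after thinning. The thinned interval of the Control library lay above both others, which overlapped. Ighm ran the opposite way, at 1902 CPM in the Control, 2071 CPM in the IR and 2467 CPM in the IR+CBD library, with ratios of 1.09 (1.06 to 1.11) and 1.19 (1.17 to 1.22). Per 100 Ighm UMIs there were 4.58 (4.22 to 4.96) Ighd UMIs in the Control, 1.96 (1.75 to 2.18) in the IR and 2.05 (1.83 to 2.30) in the IR+CBD library. Over all cells, where plasma-like cells added Ighm, the values were 2.07, 1.96 and 1.34.

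The Ighd-positive cells of the Ms4a1 gate differed from the Ighd-negative ones in genes that did not choose them. Cd74, the invariant chain of antigen presentation, stood at 3546, 2624 and 2640 CPM in the 280, 210 and 216 cells with Ighd and at 1031, 1598 and 1795 CPM in the others. The gap between both kinds of cells was widest in the Control library. Their kappa to lambda ratio was 1.48 (1.42 to 1.53) against 1.07 (1.05 to 1.10) in the Control library, 0.941 (0.912 to 0.972) against 1.02 (1.00 to 1.04) in the IR library, and 1.04 (1.01 to 1.08) against 1.15 (1.12 to 1.17) in the IR+CBD library. The ratio was thus higher with Ighd in the Control library and lower with Ighd in both irradiated libraries. Erythroid markers, all 5 detected, summed to 377, 1444 and 566 CPM in the gate, and 3 or more of 4 myeloid progenitor markers were found in 39.7%, 19.0% and 20.1% of its cells. Their part in the Ighd values was not tested.

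The Jchain gate gathered plasma-like cells. Of its 53 cells, 48 had at least 3 of 8 plasma cell markers and more of them than pDC markers. Xbp1, a transcription factor of secretory cells, was detected in 96.4%, 90% and 100% of the cells, and Txndc5, a protein folding enzyme, in 96.4%, 100% and 86.7%. Mzb1, a chaperone of plasma cells, was detected in 7.14%, 40.0% and 13.3%. At least 3 of 8 pDC markers were found in 89.3%, 80.0% and 80.0% of the cells, so this list does not set the gate apart. Siglech and Klk1 of that list were at 0 in all 3 libraries, and Cox6a2 in the IR+CBD library, while its other genes were detected. Klk1 was also at 0 in the larger Ms4a1 gate of the IR and IR+CBD libraries. In each library 1 cell had more pDC than plasma cell markers and counted as pDC-like by that rule. The Control one had 4 plasma cell and 5 pDC markers, yet held 1214 Jchain, 8352 Igkc and 2985 Ighm UMIs. Its counts were thus like those of the plasma-like cells, while the IR and IR+CBD ones held 3 and 0 Igkc UMIs. The gate held 0.262% (0.174 to 0.379), 0.0967% (0.0464 to 0.178) and 0.146% (0.0817 to 0.241) of the kept cells, and the intervals of the Control and IR libraries overlapped. The members made up 40.6%, 36.1% and 36.7% of all UMIs of these cells. The cells held a median of 5281.5, 6926 and 5214 Igkc UMIs, with a highest cell of 14174, 17896 and 14950. Transcripts of other cell types were found in all 3 libraries. At least 3 of 5 neutrophil markers, all detected, were found in 60.7%, 70.0% and 53.3% of the cells, with a summed level of 457, 23528 and 14301 CPM. At least 3 of 4 myeloid progenitor markers, all detected, were found in 53.6%, 20% and 46.7%, with a summed level of 2174, 66.9 and 3633 CPM. Their part in the members' values was not tested. Removal of a fixed number of the highest doublet scores, 911, 856 and 844 cells, would take 27, 10 and 15 of these 28, 10 and 15 cells. Automatic doublet calls were not split by gate.

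Each called cell of the Jchain gate was dominated by 1 heavy chain gene. The called cells include the pDC-like Control cell and the 1, 0 and 1 cells that counted as neither plasma-like nor pDC-like. Cells with 20 or more heavy chain UMIs numbered 28, 9 and 14, and in every one of them the leading gene took at least 96.6% of the heavy chain UMIs. In the Control library 16 cells were led by Ighm, 5 by Igha, 4 by Ighg2b and 3 by Ighg2c. In the IR library 7 cells were led by Igha, 1 by Ighg1, 1 by Ighg2c and 0 by Ighm. In the IR+CBD library 8 cells were led by Igha, 5 by Ighm and 1 by Ighg2b. IgM cells therefore made up 57.1% (37.2 to 75.5) of the called cells in the Control library, 0% (0 to 33.6) of the 9 in the IR library and 35.7% (12.8 to 64.9) in the IR+CBD library. IgA cells made up 17.9% (6.06 to 36.9), 77.8% (40.0 to 97.2) and 57.1% (28.9 to 82.3). These intervals count each cell as independent, so they are not compared between libraries. Of the IgM cells, 5 in the Control library shared 1 pair of leading variable genes, and 3 in the IR+CBD library shared another. The cells of a library came from 3 pooled mice, and how they were spread over the mice is not known.

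The summed levels followed these few cells. Ighm stood at 64444 CPM in the Control, 74.0 CPM in the IR and 44450 CPM in the IR+CBD library, and Igha at 13572, 49723 and 45550 CPM. Ighm was the member with the largest difference between libraries, with 37944, 21 and 16128 UMIs. The Igha ratio of IR over Control was 3.66 (3.56 to 3.77), an interval that leaves out the spread between cells. The 5, 7 and 8 cells led by Igha held a median of 1557, 1903 and 1294 heavy chain UMIs. Single cells among them ranged from 54 to 3223, 571 to 3213 and 109 to 5256. They made up 17.9%, 77.8% and 57.1% of the called cells. Jchain, which chose the gate, had medians of 759, 855.5 and 733 UMIs per cell. Ighd had 0, 0 and 1 UMIs.

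**Figure D4:**
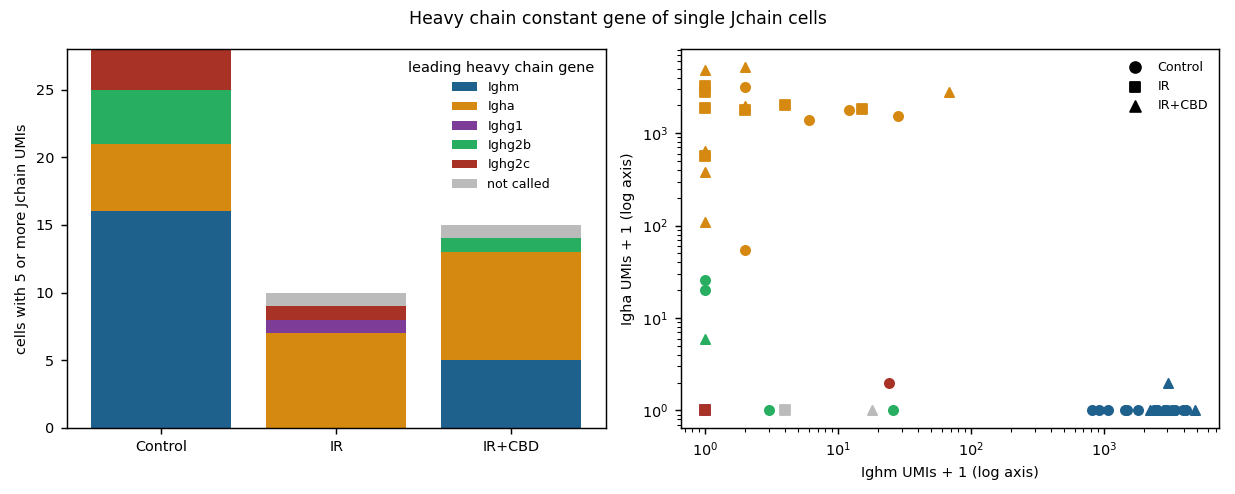
Heavy chain use of the 53 cells with 5 or more Jchain UMIs. Left, cells per library stacked by leading heavy chain gene; right, Ighm UMIs plus 1 against Igha UMIs plus 1 of each cell on log axes, coloured by leading gene and shaped by library. IgM cells number 16, 0 and 5 and IgA cells 5, 7 and 8. Some cells led by Igha lie off the axis, the highest Ighm count among them being 67, beside 2774 Igha UMIs in an IR+CBD cell.

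Light chain use in the Jchain gate was nearly uniform by constant gene. All 28 called Control cells, 8 of 9 IR cells and all 14 IR+CBD cells were kappa cells. Of the 51 cells 0 were lambda cells, with upper limits of 12.3%, 33.6% and 23.2% per library that count each cell as independent. The remaining IR cell, led by Ighg1 with 4037 UMIs, held 13238 Igkc and 1944 Iglc3 UMIs, 12.8% lambda. It set the Iglc3 level of its library, where Iglc3 stood at 600, 7079 and 526 CPM. Low lambda counts were common, with a median lambda share of 1.13%, 1.06% and 1.62% of light chain constant UMIs in called cells. An Iglv gene was detected in 92.9%, 100% and 92.9% of kappa cells. Variable genes gave another proportion, with 1203, 737 and 702 Iglv UMIs beside 1793, 747 and 707 Igkv UMIs in the gate. Iglv1 led with 95.8%, 97.2% and 95.3% of the Iglv UMIs. The difference from the constant genes was not tested. Of 7 members tested, 2 were more than 1.5-fold higher (Iglc3 and Igha) and 2 lower (Iglc1 and Ighm) in IR than in Control, beside 30.9% of 2539 genes past that fold, and 2 were higher (Iglc1 and Ighm) and 1 lower (Iglc3) in IR+CBD than in IR, beside 27.3%. The median log2 ratio of the 7 members was -0.26 and 0.17 in these comparisons, beside 0.09 and 0.02 over all genes.

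Variable segments were rich enough in these cells to compare them. A leading Igkv and a leading Ighv gene with 5 or more UMIs were found in 27, 9 and 12 cells, which held 23, 9 and 10 distinct pairs, 42 in all 48 cells. Igkv14-126 with Ighv11-2, a pair known from B-1 cells that bind phosphatidylcholine, recurred in 5 Control cells, all led by Ighm with 2383 to 3399 Ighm UMIs. Igkv4-74 with Ighv1-26 recurred in 3 IR+CBD cells, all led by Ighm with 2214 to 4823 Ighm UMIs. The other pairs were each found in 1 cell, and no pair was shared between libraries. The 2 pairs were singled out after their values were seen, and pairs read from leading genes are not full receptor sequences.

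In cells without a Cd79a UMI the 8 genes were present at low levels. This gate still held some cells of the B cell gates. These were 7, 9 and 8 Igll1 gate cells, 60, 45 and 43 Rag1 gate cells and 79, 44 and 45 Ms4a1 gate cells. In the Cd79a-zero gate Igkc stood at 37.9 CPM in the Control, 12.6 CPM in the IR and 50.9 CPM in the IR+CBD library. Without the 1, 0 and 3 Jchain gate cells it stood at 16.6, 12.6 and 18.0 CPM, on 2560, 1971 and 2531 UMIs. With all cells of several gates left out, 2244, 1814 and 2300 Igkc UMIs remained. Cells with an Igkc UMI made up 23.3%, 22.2% and 22.5% at median depths of 18567, 24833 and 19206.5 UMIs, and 3.91%, 2.74% and 3.46% after thinning. Of the 8 members, 1 was more than 1.5-fold higher (Igha) and 5 were lower (Igkc, Iglc3, Ighm, Ighd and Jchain) in IR than in Control, beside 17.8% of 20221 genes past that fold, and without Jchain gate cells Igkc was no longer past it. Between IR+CBD and IR 3 were higher (Igkc, Igha and Jchain), beside 7.15% of all genes, and 2 (Igha and Jchain) without Jchain gate cells.

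Igkc was detected in a few percent of cells of unrelated types. In thinned Cd79a-zero cells without Jchain gate cells, Igkc was detected in 2.80%, 1.53% and 2.08% of erythroid cells marked by Klf1, 2.58%, 1.66% and 2.37% of myeloid progenitors marked by Mpo, and 4.55%, 3.32% and 3.78% of neutrophil precursors marked by Camp. Median depths of these classes were 39405 to 41545.5, 23962 to 32660 and 11064.5 to 12609 UMIs per cell. The intervals of the erythroid and myeloid progenitor shares overlapped in each library. The neutrophil precursor share lay above the myeloid progenitor share without overlap in the Control library, 3.295% to 6.09% against 2.03% to 3.24%, and in the IR library, 2.30% to 4.64% against 1.21% to 2.23%, and overlapped it in the IR+CBD library. No expression of Igkc is read from these shares. Igha was also found in all 3 classes and followed 1 order, at 0.364, 1.62 and 2.54 CPM in erythroid cells, 0.419, 1.65 and 3.56 CPM in myeloid progenitors and 0.323, 2.91 and 5.83 CPM in neutrophil precursors. Over these classes together there were 3.64 (2.69 to 4.83), 19.7 (17.1 to 22.5) and 26.4 (23.7 to 29.4) Igha UMIs per 100 Igkc UMIs. The Jchain gates of the same libraries held 4.70, 18.2 and 19.2, and the Ms4a1 gates without Jchain gate cells 0.0507, 0.154 and 0.253. The intervals of the Control and IR libraries held the value of their own Jchain gate, the IR+CBD interval lay above it, and all 3 lay far above the values of the Ms4a1 gates. The other members did not keep the proportion of the Jchain gates. Per 100 Igkc UMIs the classes held 8.38 (6.86 to 10.1), 6.29 (4.96 to 7.88) and 13.9 (12.0 to 15.9) Jchain UMIs against 12.2, 10.84 and 15.4 in the Jchain gates, so that the Jchain value of the gate was held by the IR+CBD interval alone. Iglc1 stood at 5.54, 10.6 and 7.78 against 0.308, 0.189 and 0.402 per 100 Igkc UMIs, and Ighm at 639, 599 and 393 against 22.3, 0.0271 and 18.7, both far above the Jchain gates.

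Counts of Igha in the B cell gates have to be set beside this. Without Jchain gate cells Igha stood at 1.54, 5.53 and 10.4 CPM in the Ms4a1 gate, on 11, 46 and 64 UMIs, and its positive cells made up 1.08%, 4.48% and 6.22% at median depths of 3275, 3456.5 and 2984 UMIs. In Cd79a-zero cells, at several times the depth, the shares were 1.00%, 4.90% and 7.28%, each close to that of the Ms4a1 gate. After thinning the shares were 0.461%, 2.11% and 4.04% in the Ms4a1 gate against 0.168%, 0.414% and 0.891% in the Cd79a-zero gate. Ighg1 led 1 plasma-like cell, in the IR library, with 4037 UMIs. In the IR library 26 cells each of the Igll1, Rag1 and Ms4a1 gates and 224 Cd79a-zero cells held an Ighg1 UMI, in the Control library 1, 0, 0 and 5, and in the IR+CBD library 0 in each. The part of free RNA in these counts was not tested, and no expression of Igha or Ighg1 is read from the Igll1, Rag1 or Ms4a1 gates.

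Ighm, Iglc3 and Igkc were not spread evenly over Cd79a-zero cells. Ighm was detected in 14.5%, 14.9% and 13.2% of thinned myeloid progenitors but in 0.933%, 1.53% and 1.70% of thinned erythroid cells. In early lymphoid cells marked by Dntt it was detected in 39.6%, 33.9% and 34.8%, and in cells marked by the pDC gene Siglech in 74.7%, 72.9% and 78.0%. These 285, 48 and 83 Siglech cells held 667, 499 and 684 CPM of Ighm. They also held 52.6, 53.9 and 39.5 CPM of Igkc, which was detected in 7.04%, 14.6% and 7.32% of them after thinning. Iglc3 stood at 176 (162 to 191), 199 (166 to 236) and 135 (111 to 162) CPM in Siglech cells and at 0.701, 0.710 and 0.386 CPM in myeloid progenitors. It was detected in 112 of 285, 16 of 48 and 19 of 83 Siglech cells, and in 25.4%, 25% and 18.3% after thinning.

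Iglc3 stood apart from the other lambda genes in the Siglech cells. Iglc1 held 4, 1 and 3 UMIs there, and Iglc2 held 21, 54 and 0 UMIs, while Iglc3 held 586, 129 and 116. Cells with 5 or more Iglc3 UMIs numbered 53, 13 and 12, and cells with 5 or more Iglc2 UMIs 0, 5 and 0. Early lymphoid cells held 16.9, 10.6 and 10.0 CPM of Iglc3, but only 0.528, 0.942 and 0.832 CPM where Siglech was at 0. Of the 352, 69 and 51 Iglc3 UMIs of Dntt cells, 10, 6 and 4 lay in cells with Siglech at 0, in 9 of 67, 6 of 12 and 1 of 8 cells with Iglc3. Most of the UMIs thus lay in cells that also carried Siglech, and so did most of the cells in the Control and IR+CBD libraries but not in the IR library. The IR and IR+CBD libraries held fewer Siglech cells of this gate, and a lower summed Iglc3 level of the whole Cd79a-zero gate, 4.77, 1.77 and 1.65 CPM, went with that.

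**Figure D5:**
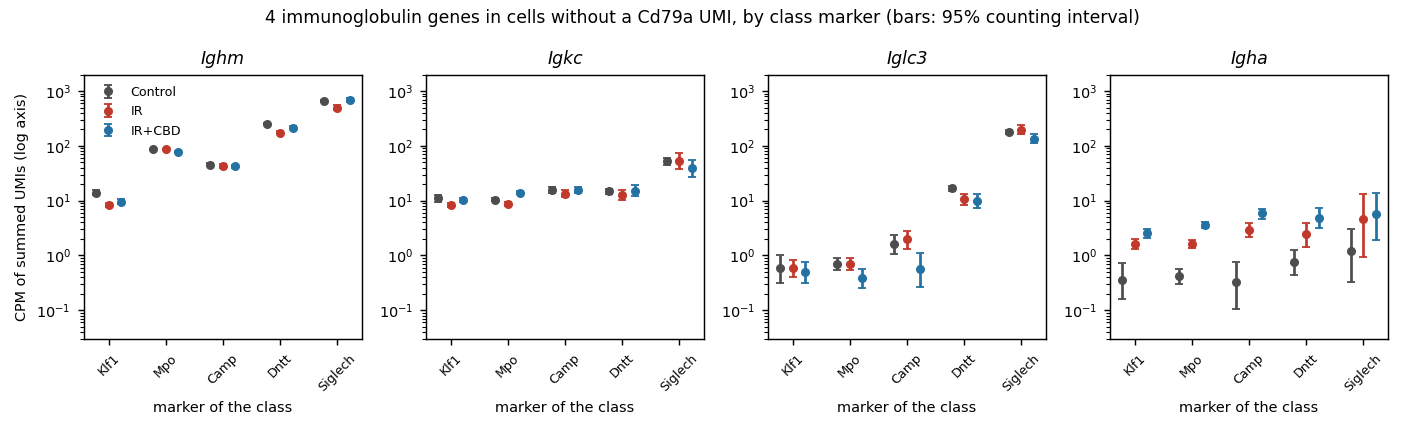
Levels of Ighm, Igkc, Iglc3 and Igha in Cd79a-zero cells without Jchain gate cells, as CPM on a log axis, by marker class (Klf1, Mpo, Camp, Dntt, Siglech) and library. Ighm, Igkc and Iglc3 stand highest in the Siglech class, Iglc3 at 135 to 199 CPM and Igkc at 39.5 to 53.9 CPM. Igkc lies between 8.31 and 15.96 CPM in the Klf1, Mpo and Camp classes, and Igha follows the order Control, IR, IR+CBD.

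The partners of the chains were described by lists, whose counts past 1.5-fold stand beside the shares of all genes given above for the same gates. Of the 6 surrogate light chain and receptor partner genes (Igll1, Vpreb1, Vpreb2, Vpreb3, Cd79a and Cd79b), none was past 1.5-fold between IR and Control in the Igll1 gate, and Vpreb2 alone was lower in IR+CBD than in IR, at 162, 242 and 154 CPM. In the Rag1 gate, where 5 were tested, Vpreb1 was higher and Vpreb2 lower in IR, and Vpreb1 was lower in IR+CBD than in IR. In the Ms4a1 gate Vpreb2 was higher in IR, and Igll1, Vpreb1 and Vpreb2 were all lower in IR+CBD than in IR. Vpreb1 stood at 60.7, 85.3 and 25.97 CPM there, and Igll1 at 42.3, 54.5 and 16.2 CPM. Cd79b, a signalling chain of the receptor, stood at 701, 916 and 933 CPM and was not past the fold. In the Jchain gate, where 3 were tested, Vpreb3 was higher in IR and lower again in IR+CBD, and in the Cd79a-zero gate, where 5 were tested, Vpreb2 was lower in IR+CBD than in IR.

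Of the 12 plasma cell secretion genes, 10 were tested in the Jchain gate, where 3 were past the fold between IR and Control, beside 30.9% of all genes, and 2 between IR+CBD and IR, beside 27.3%. These counts are near those shares. Tnfrsf17, a survival receptor, was higher and Derl3 and Creld2, which act in protein quality control of the endoplasmic reticulum, were lower in IR than in Control, while Derl3 and Fkbp11 were lower in IR+CBD than in IR. Derl3 stood at 299, 173 and 113 CPM. In the Igll1 gate 0 of 10 were past the fold between IR and Control and Tent5c was lower in IR+CBD than in IR, and in the Rag1 gate Sdc1 and Fkbp11 were lower in IR and Sdc1 was higher in IR+CBD. Of 9 tested in the Ms4a1 gate, Xbp1, Sdc1, Fkbp11 and Tent5c were lower in IR over all cells. Once Jchain gate cells were left out, Derl3 was higher and Sdc1 and Fkbp11 were lower in IR, and Sdc1 was higher in IR+CBD. In the Cd79a-zero gate without those cells Sdc1 and Tnfrsf17 were lower in IR, out of 11 tested, and 0 were past the fold in IR+CBD over IR.

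Of the 6 other constant region genes (Ighg1, Ighg2b, Ighg2c, Ighg3, Ighe and Iglc4), Ighg2b alone had enough UMIs in the Igll1 gate and none had in the Rag1 gate. Ighg2b held 760, 356 and 191 UMIs in the Igll1 gate, 58.7, 27.2 and 28.5 CPM, in 197, 83 and 56 cells, and 18, 2 and 3 UMIs in the Rag1 gate. It was thus lower in both irradiated libraries than in the Control library in the gate with surrogate light chain. Iglc4 held at most 32 UMIs in any B cell gate, and Ighe at most 1 in any of the Igll1, Rag1, Ms4a1 or Jchain gates. Ighg3 held 18, 1 and 0 UMIs in the Ms4a1 gate. Of 2 tested there without Jchain gate cells, Iglc4 was higher and Ighg2b lower in IR, and Iglc4 was lower in IR+CBD than in IR. In the Jchain gate, where 3 were tested, Ighg1 was higher and Ighg2b lower in IR, and Ighg2b was higher and Ighg1 and Ighg2c lower in IR+CBD than in IR. The same directions were found among 3 tested in the Cd79a-zero gate, where Ighg2c was also lower in IR than in Control.

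The variable genes were summed by locus. Igkv genes stood at 5.87, 10.6 and 8.86 CPM in the Igll1 gate, 44.7, 54.4 and 52.2 CPM in the Rag1 gate and 62.3, 66.1 and 76.6 CPM in the Ms4a1 gate without Jchain gate cells. Their order in the Igll1 and Rag1 gates, lowest in Control and highest in IR, was that of Igkc. Igkv1-110 and Igkv1-117 were among the 3 leading Igkv genes in all libraries of the Rag1 and Ms4a1 gates, with shares of Igkv UMIs between 6.78% and 16.03%. The third was Igkv1-135, except in the IR+CBD library of the Ms4a1 gate, where it was Igkv2-109. In the Igll1 gate Igkv19-93 and Igkv1-110 were among the leading 3 of all libraries, with Igkv12-89 in the Control, Igkv3-8 in the IR and Igkv1-88 in the IR+CBD library. Iglv genes, of which Iglv1 led with 59.3% to 76.7%, stood at 20.1, 22.8 and 23.6 CPM in the Rag1 gate and 24.4, 27.8 and 27.4 CPM in the Ms4a1 gate. Ighv genes stood at 23.4, 18.4 and 17.7 CPM in the Igll1 gate, where Ighv14-2 led with 23.4%, 14.5% and 16.1%. The next Ighv genes there were Ighv1-23 and Ighv1-76 in the Control, Ighv1-82 and Ighv1-76 in the IR and Ighv1-76 and Ighv1-74 in the IR+CBD library. In the Rag1 and Ms4a1 gates no Ighv gene took more than 5.83% of the Ighv UMIs, and some of the leading genes were tied. The leading 3 of the Rag1 gate were Ighv1-82, Ighv1-23 and Ighv1-26 in the Control, Ighv9-3, Ighv1-82 and Ighv3-6 in the IR and Ighv1-82, Ighv1-75 and Ighv1-76 in the IR+CBD library. Those of the Ms4a1 gate were Ighv2-2, Ighv6-3 and Ighv1-26 in the Control, Ighv5-4, Ighv9-3 and Ighv7-3 in the IR and Ighv5-4, Ighv6-3 and Ighv4-1 in the IR+CBD library.

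In the Jchain gate each library had its own leading variable genes. The Igkv genes were led by Igkv14-126, Igkv19-93 and Igkv1-135 in the Control, Igkv17-127, Igkv3-4 and Igkv12-46 in the IR and Igkv14-100, Igkv4-74 and Igkv1-88 in the IR+CBD library, the first of each with 30.6%, 16.2% and 24.9% of the Igkv UMIs. The Ighv genes were led by Ighv11-2, Ighv5-6 and Ighv1-64 in the Control, Ighv1-9, Ighv2-2 and Ighv1-18 in the IR and Ighv1-75, Ighv1-12 and Ighv1-5 in the IR+CBD library. In the Cd79a-zero gate without Jchain gate cells Ighv1-77, Ighv1-82 and Ighv1-41 were the leading 3 Ighv genes of each library, on 309, 142 and 152 Ighv UMIs. Its Igkv genes, on 74, 43 and 58 UMIs, were led by Igkv14-126, Igkv1-110 and Igkv19-93 in the Control, Igkv17-121, Igkv1-110 and Igkv1-135 in the IR and Igkv17-127, Igkv14-111 and Igkv19-93 in the IR+CBD library.

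Other genes followed the members over the 15 points of 5 gates in 3 libraries, which share libraries and in part cells and are not independent. Among 14251 genes that are no immunoglobulin gene, Eaf2, Serp1 and Nek7 were most like Igkc, with Pearson correlations of log2(CPM + 1) of 0.98, 0.95 and 0.95. Gm16158, 2010309G21Rik and Il2rg were most like Iglc1, at 0.99, 0.97 and 0.96, and Il2rg, 2010309G21Rik and Bhlhe41 most like Iglc2, at 0.98, 0.96 and 0.96. For Iglc3 they were Gm43388, Il2rg and Tram2, at 0.97, 0.96 and 0.96. The gene 2010309G21Rik overlaps Iglc1 and Iglc3, and Il2rg was named for each of the lambda genes. For Ighm they were Bend5, Slc41a1 and ENSMUSG00000121197, a gene without a symbol, at 0.90 for each, and for Ighd Cd72, Prkce and Ap1s3, at 0.97 for each. Enpp1, Ly6a and Txndc5 were most like Igha, at 0.93, 0.92 and 0.92, and Cd274, Enpp1 and Derl3 most like Jchain, at 0.94, 0.94 and 0.93. Among the members themselves Iglc1 and Iglc2 reached 0.98, Igha and Jchain 0.96, and Igkc and Ighd 0.02.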

How the data were processed

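The 3 libraries were made with the 10x Genomics 3′ V2 chemistry per the labels. The authors deposited filtered matrices of raw UMI counts per gene and cell, made with Cell Ranger against GRCm39; the submitters' processing notes name version 4.0 and the matrix headers 7.0.1. The total counts per library were 199383228, 206932522 and 177806843 UMIs for Control, IR and IR+CBD over 12200, 11951 and 11884 barcodes. Barcodes with fewer than 200 genes, or with mitochondrial genes above 5% of their UMIs, were left out.

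Counts were read with pandas 2.3.3, numpy 2.4.6 and scipy 1.17.1, and figures drawn with matplotlib 3.10.9. Doublet scores came from Scrublet in scanpy 1.11.5. Cells were gated on raw UMIs, UMIs were summed per gate and library, and CPM divides the sum by all UMIs of those cells. Intervals are Clopper-Pearson for shares, exact Poisson for CPM and conditional binomial for ratios, at 95%, and cover counting error only. In the checks of processing, intervals for ratios between libraries of shares, kappa to lambda and Ighd to Ighm are normal approximations on the log scale. With 1 library per group no test was run. A 1.5-fold difference stands in for a call, over genes with 50 or more UMIs in a gate (0.5 was added to each sum). Cells were thinned once to 2000 UMIs, and shallower cells were left out, 3 to 106 per library of the Igll1, Rag1 and Ms4a1 gates without Jchain gate cells. No doublets were removed in the values reported. Scrublet called 430, 434 and 444 cells. The alternative did not use these calls but removed a larger fixed number of its highest scores, 911, 856 and 844 cells. Cd79a-zero cells were classed by 2 or more Klf1 or Siglech UMIs, 5 or more Mpo or Camp UMIs, and 1 or more Dntt UMIs. A class set by 5 or more Nkg7 UMIs was not used, since 78.8% to 84.8% of it also passed the Mpo threshold, and a Cd3e class held 101, 47 and 43 cells.

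The text names all 8 members, lists of other constant genes, receptor partners and plasma cell genes by counts, variable genes by the 3 highest per gate, and the 3 most correlated genes of each member. The members and lists were chosen with earlier results of these data known. The summing, interval and thinning steps were tested on simulated data. Sequences and positions came from GENCODE transcripts and annotation of GRCm38. Alternatives were other cell filters, stricter gates, thinning, equal weight of cells, removal of doublets and of overlapping cells, and another CPM total.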

Additional observations from a re-analysis of the deposited data

Results flagged for a closer look

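Several members lay on opposite sides of 1.5-fold in different gates under the same comparison. These differences between gates were not tested. Of IR over Control, Igkc had a ratio of 4.92 in the Igll1 gate and 0.331 in the Cd79a-zero gate, Iglc1 of 2.83 in the Igll1 gate and 0.578 in the Jchain gate, and Iglc3 of 11.8 in the Jchain gate and 0.371 in the Cd79a-zero gate. Igha had 256 in the Igll1 gate and 0.50 in the Ms4a1 gate, and Jchain 117 and 0.121 in the same gates. Of IR+CBD over IR, Igkc had 4.05 in the Cd79a-zero gate and 0.359 in the Igll1 gate, Iglc1 1.85 in the Jchain gate and 0.135 in the Igll1 gate, Igha 4.62 in the Cd79a-zero gate and 0.0217 in the Igll1 gate, and Jchain 18.0 and 0.0316 in the same gates. Many of these ratios rest on a few cells of the Jchain gate. Without Jchain gate cells the Igll1 gate ratios of Igha were 4.08 and 1.37, and those of Jchain 1.15 and 1.96. Igkc was then past 1.5-fold in neither comparison of the Cd79a-zero gate, nor in the Igll1 gate for IR+CBD over IR. In the Ms4a1 gate Igha was then higher in IR than in Control, at 5.53 against 1.54 CPM. Of the 2010 Iglc3 UMIs in the Jchain gate of the IR library, 1944 lay in 1 cell.

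Barcodes left out by the filters also held signal. Of 1526, 1606 and 1611 such barcodes, 1, 2 and 3 had 5 or more Jchain UMIs, 0.0655%, 0.125% and 0.186% of them, above the Control share in both irradiated libraries, and each exceeded the mitochondrial limit.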

How the results depend on the processing

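No paired analysis was possible because each group has 1 library. Of 92 recomputed comparisons, 45 stayed within the interval of the reported value (for counts of members, within 1.5 times), 40 moved past it and 7 reversed; the alternatives without Jchain gate cells, without the highest cell, and of mixed light chain cells were chosen after seeing the data. The cause was not tested.

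Where doublets were removed, gates made stricter, cells thinned, cells weighted alike, cells of several gates left out, or Jchain gate cells left out, in that order, the kappa to lambda ratio in the Ms4a1 gate was, for IR over Control, 0.848, 0.646, 0.826, 0.543, 0.836 and 0.843 against 0.241 as reported, and for IR+CBD over IR 1.12, 1.20, 1.16, 1.11, 1.13 and 1.12 against 1.32. Ighd per Ighm in that gate was 0.449, 0.580, 0.456, 0.502, 0.429 and 0.427 against 0.946 for IR over Control. For IR+CBD over IR it was 0.970 and 0.994 with doublets removed and stricter gates, and turned round to 1.03, 1.03, 1.01 and 1.05 in the others, against 0.685.

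Igkc in the Rag1 gate was, for IR over Control, 1.60 with a mitochondrial limit of 10%, 1.39 with stricter gates and 1.495 without cells of several gates, the last 2 no longer past 1.5-fold, against 1.56. For IR+CBD over IR it was 0.831, 0.812, 0.801, 0.809 and 0.923 with doublets removed, stricter gates, thinning, equal weight and without cells of several gates, against 0.901. Igha in the Jchain gate was, for IR over Control, 3.95 with stricter gates, 4.34 thinned, 4.32 with equal weight, 3.36 with immunoglobulin UMIs left out of the total, 3.52 without cells of several gates and 4.92 without the highest cell of each library, against 3.66. For IR+CBD over IR it was 0.973 with stricter gates and 0.816 without the highest cell, and turned round to 1.14 thinned, 1.15 with equal weight and 1.63 without cells of several gates, against 0.916. Removal of doublets left no Jchain gate cell in the IR and IR+CBD libraries and gave no value. The share of Cd79a-zero cells with Igkc was 1.02 with stricter gates and 0.886 thinned, against 0.953 (0.894 to 1.02) for IR over Control, an interval that includes 1. Members past 1.5-fold went from 6 to 3 in the Igll1 gate (IR+CBD over IR) and from 5 to 3 in the Ms4a1 gate (IR over Control) without Jchain gate cells.

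Depth limits Igha and Jchain outside the Jchain gate, and 9 to 28 called cells per library limit the isotype shares.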
